A study of Mus musculus with 9 samples.

Results

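Endothelial cells of the adult mouse lung were compared at 2 ages, young adult and mature adult, by ATAC-seq, which uses a transposase to insert sequencing adapters wherever the DNA is accessible. The comparison takes the 3 young adult and the 3 mature adult peak lists, 6 of the 9 libraries of the study, because the labels place them in these age groups. The other 3 libraries, from infant mice, are given only as a reference and to help estimate the spread between libraries. The study's title names the passage of endothelium from vessel growth to rest as its subject.

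All groups are mouse lung endothelial cells isolated by flow sorting. The labels give no strain, genotype, treatment or age in days, no sorting markers, and no word on whether replicates are different animals or pools. The p-values thus reflect only variation among these libraries (for the gene test, all 9), which may be technical. A peak is a stretch of DNA called open, a region is called open in a library when a peak of that library overlaps it, and no height or read number accompanies a peak. The depth of sequencing is unknown, and DNA outside all peaks of a library may still be open. In such bulk samples fewer cells of a type and less open chromatin per cell cannot be told apart.

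Endothelial cells line every vessel, and in the lung capillaries they form the gas exchange surface together with the alveolar epithelium. After birth these vessels sprout and remodel, and in the adult they divide rarely. Open chromatin lies mostly at gene starts, where transcription begins and which are often rich in CpG (a C followed by a G), and at enhancers, short elements that act on genes from a distance and that differ most between cell states.

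Endothelial genes were open at both ages. Each of 16 endothelial identity genes, among them Pecam1, Cdh5 (VE-cadherin), Kdr (a VEGF receptor), Tek, Erg and Cldn5, held peaks in all 6 adult libraries, and their summed peak number ranged from 226 to 251 in young adults and from 209 to 241 in mature adults. Markers of other cell types also held peaks, and a peak at a gene does not show that the gene is expressed. The 17 fibroblast and mural markers summed to between 48 and 57 peaks in the adult libraries, with 9 or 10 at Pdgfra and 7 or 8 at Myh11, and Dcn and Lum had no adult peak. The 15 epithelial markers summed to between 32 and 43, with between 10 and 15 at Rtkn2 and between 6 and 9 at Hopx, and Sftpc, Ager and Krt18 had no adult peak. The 19 immune markers summed to between 16 and 32, with between 4 and 7 at Ptprc, and Cd68, Itgam, Itgax, Cd3e, Cd4, Nkg7 and S100a8 had no adult peak.

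Young adult library 3 and mature adult library 1 stood apart from the others of their age. Their peaks were narrower, with a mean width of 487 bp in young adult library 3 against 537 and 541 bp in the other young adult libraries, and of 495 bp in mature adult library 1 against 530 bp in both other mature adult libraries. They also held many regions open in no other of the 9 libraries, 4901 in young adult library 3 and 4536 in mature adult library 1, against between 1211 and 2003 in the other 4 adult libraries. Of these regions, 40.3% in young adult library 3 and 45.0% in mature adult library 1 lay over 100 kb from any protein-coding gene. The same share was 6.35% and 7.02% in young adult libraries 1 and 2 and 33.0% and 30.0% in mature adult libraries 2 and 3. In young adult library 3 and mature adult library 1 the genes with most such regions included Lsamp, Cntnap2, Tenm2 and Csmd1, long genes of neuronal adhesion and synapses. Rbfox1, Macrod2 and Cdh13 were also among them. The numbers of peaks, starts and regions of 1 age only and called genes below are therefore also given without young adult library 3 and mature adult library 1. Other values are given without these 2 libraries only where stated.

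**Figure D1:**
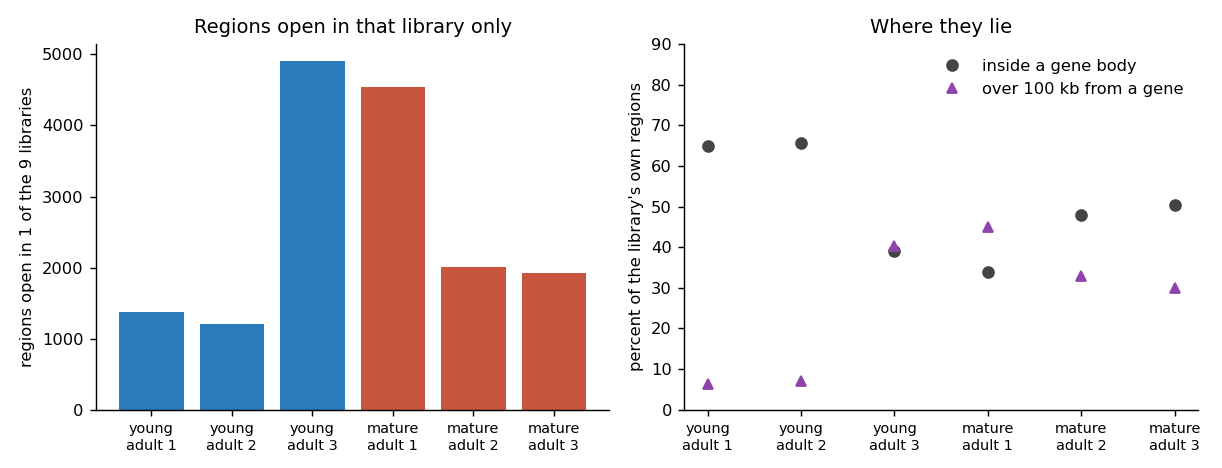
Left, the number of regions open in 1 adult library and in none of the other 8 libraries. Right, the percent of those regions inside a gene body (circles) and over 100 kb from a gene (triangles). Young adult library 3 and mature adult library 1 held the most such regions, and young adult libraries 1 and 2 differ from the other 4 in where theirs lie.

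The losses named first are at gene starts, and the starts of 5 genes are shown so that the sequences without a mature adult peak can be seen. Each is the RefSeq window of 250 bases before to 50 bases after a transcription start in assembly GRCm38.p6 (mm10), printed 5′ to 3′ on the gene's strand, with every CpG in capitals. Plekhh2, a membrane and actin adaptor protein, Gli3, a transcription factor of the hedgehog pathway, and the long noncoding RNA 5730522E02Rik were taken by the width of the region that overlaps them. The long noncoding RNA Gm40513 was taken in the same way and is not printed. Cyfip2, a subunit of the WAVE complex that directs actin branching, and Col4a4, a collagen chain of basement membrane, were added after their values were seen.
Plekhh2: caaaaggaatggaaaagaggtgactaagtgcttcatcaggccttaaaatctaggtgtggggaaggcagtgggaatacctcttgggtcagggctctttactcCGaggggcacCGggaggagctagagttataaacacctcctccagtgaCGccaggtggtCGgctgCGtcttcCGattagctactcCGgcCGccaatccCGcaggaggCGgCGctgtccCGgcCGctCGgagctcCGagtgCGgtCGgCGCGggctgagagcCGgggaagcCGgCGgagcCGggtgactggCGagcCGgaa
Gli3: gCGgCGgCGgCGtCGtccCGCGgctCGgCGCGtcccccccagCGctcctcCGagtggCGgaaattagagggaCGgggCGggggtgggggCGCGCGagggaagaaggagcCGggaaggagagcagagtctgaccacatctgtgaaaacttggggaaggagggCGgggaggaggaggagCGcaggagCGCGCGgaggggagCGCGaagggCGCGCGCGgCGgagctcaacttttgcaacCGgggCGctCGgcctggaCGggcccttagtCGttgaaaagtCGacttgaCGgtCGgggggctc
5730522E02Rik: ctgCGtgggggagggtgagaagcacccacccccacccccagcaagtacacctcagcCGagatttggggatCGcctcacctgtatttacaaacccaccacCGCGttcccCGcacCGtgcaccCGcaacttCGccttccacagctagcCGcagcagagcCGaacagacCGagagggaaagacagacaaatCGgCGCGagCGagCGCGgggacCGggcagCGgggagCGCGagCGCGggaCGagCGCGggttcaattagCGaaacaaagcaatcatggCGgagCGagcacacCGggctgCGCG
Cyfip2: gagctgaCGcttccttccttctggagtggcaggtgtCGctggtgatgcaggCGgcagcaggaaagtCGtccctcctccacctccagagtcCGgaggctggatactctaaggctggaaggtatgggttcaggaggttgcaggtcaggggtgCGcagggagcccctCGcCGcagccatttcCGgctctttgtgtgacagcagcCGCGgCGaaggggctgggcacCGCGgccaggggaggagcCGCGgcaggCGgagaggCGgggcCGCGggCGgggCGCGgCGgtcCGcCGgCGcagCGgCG
Col4a4: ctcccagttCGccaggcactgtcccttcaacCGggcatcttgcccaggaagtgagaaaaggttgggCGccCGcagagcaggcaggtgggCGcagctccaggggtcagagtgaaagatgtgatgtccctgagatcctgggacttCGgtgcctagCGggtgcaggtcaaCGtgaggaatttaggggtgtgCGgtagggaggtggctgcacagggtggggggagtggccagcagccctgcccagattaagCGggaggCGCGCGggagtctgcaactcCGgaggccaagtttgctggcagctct
The windows lie at chr17:84511645-84511944 on the plus strand (Plekhh2), chr13:15463473-15463772 on the plus strand (Gli3), chr11:26210527-26210826 on the minus strand (5730522E02Rik), chr11:46312309-46312608 on the minus strand (Cyfip2) and chr1:82586800-82587099 on the minus strand (Col4a4). They hold 25, 39, 33, 29 and 14 CpG in that order. No mature adult library had a peak over any of them. In young adult library 3 the Gli3 window itself held no peak, although the region it lies in was open there.

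The peak over the Plekhh2 start was 1376, 1313 and 1634 bp wide in the infant libraries and 1177, 1042 and 276 bp wide in the young adult libraries. Mature adult libraries held no peak anywhere within 100 kb that was assigned to Plekhh2. At the Col4a4 start the peak was 805, 751 and 692 bp wide in infants and 541, 370 and 566 bp wide in young adults. At the Cyfip2 start it was 1140, 1251 and 1101 bp wide in infants and 405, 352 and 227 bp wide in young adults. All 3 starts were thus narrower in each young adult library than in each infant library before they were without a peak in mature adults.

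RefSeq start windows, 21263 in all, were given for 17492 of the 21887 protein-coding genes. Genes without a window, such as Bmp2, are not counted here. Of the 17492 genes, 9976 had a start open in at least 1 adult library. A start was open in all 3 young adult and no mature adult library for 60 of these genes (0.601%), and the reverse held for 2 (0.0200%), Lipt1 and Lypd1. Without young adult library 3 and mature adult library 1 the numbers were 272 and 13 genes. With the same number of widest peaks from each library they were 47 and 7. How far the length of the lists sets these numbers was not tested. No single start can pass a test with 3 libraries against 3, and these classes are descriptions.

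The 60 genes hold 61 start windows, of which 55 (90.2%) were open in all 3 infant libraries, against 99.8% of the 10441 windows open in all 6 adult libraries and 56.0% of all windows. The median width of the peak over the 61 windows was 926, 874 and 780 bp in infant libraries 1 to 3 and 464, 459 and 277 bp in young adult libraries 1 to 3. Windows open in all 6 adult libraries had much wider peaks, with medians of 1106, 1060 and 1043 bp in the infant, 977, 989 and 865 bp in the young adult and 863, 929 and 935 bp in the mature adult libraries. In 42 of the 61 windows the whole merged region had no mature adult peak, and in the other 19 a mature adult peak lay elsewhere in the region, beside the start. The latter was also the case at both Lipt1 and Lypd1, whose regions were open in all 9 libraries.

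**Figure D2:**
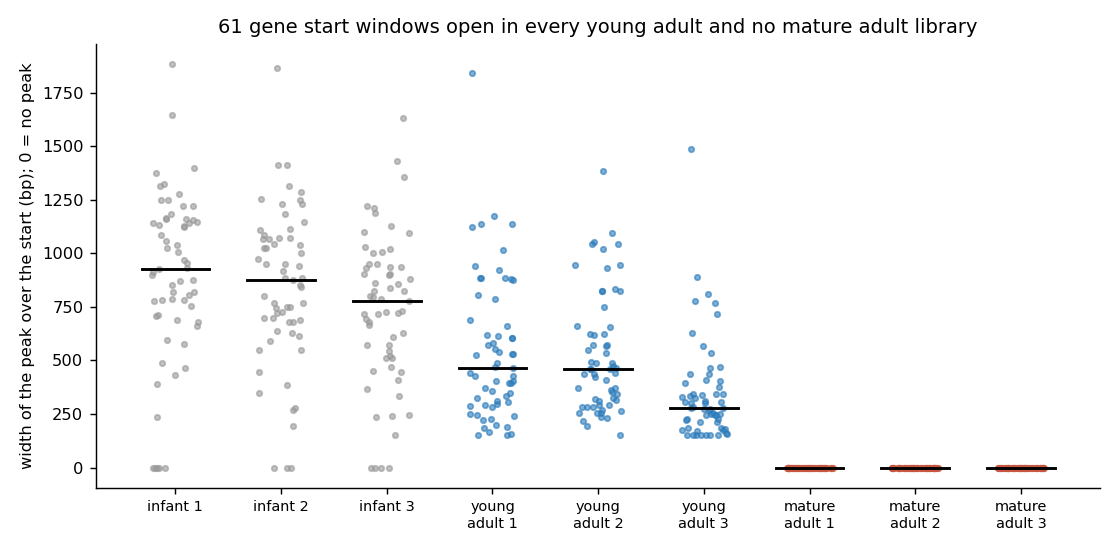
Width in bp of the peak over each of 61 start windows (1 point a window, 0 where no peak overlaps it) in the 9 libraries, chosen as open in every young adult and no mature adult library. Horizontal bars are medians over the 61 windows, 926, 874 and 780 bp in infants and 464, 459 and 277 bp in young adults. The horizontal spread of points within a library has no meaning.

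The widest starts of this class included those of 3 genes named after their values were seen. Kirrel, an immunoglobulin-family adhesion protein, had peaks of 886, 1384 and 891 bp over its start in the young adult libraries. Tnfrsf19, a receptor of the tumour necrosis factor family, had 1018, 826 and 438 bp. Slc7a11, the cystine transporter that supplies glutathione synthesis, had 880, 474 and 770 bp. Peaks of this width were the wide ones of the class. In Kirrel, Tnfrsf19 and Slc7a11 a mature adult peak lay beside the start in the same region.

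Of the 383 genes of the lists used below with a start open in an adult library, 4 (1.04%, against 0.601% of all genes) had such a start: Col4a4, S1pr3, Robo2 and Pf4. S1pr3 is a receptor for sphingosine-1-phosphate, a blood lipid that sets barrier function, and its start had peaks of 305, 490 and 305 bp in the young adult libraries. Robo2 is a receptor for Slit guidance proteins, with 291, 441 and 255 bp. Pf4 encodes platelet factor 4, with 336, 253 and 275 bp. Infant peaks were wider than all young adult peaks at Robo2 (955, 616 and 730 bp) and Pf4 (713, 953 and 879 bp), and overlapped the young adult range at S1pr3 (598, 691 and 469 bp).

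Only 3 windows of the class had no peak in any infant, those of Gm8369, Hpgds and Runx1. Runx1 encodes a transcription factor needed for blood cells to arise from endothelium. This Runx1 window had narrow peaks of 183, 314 and 175 bp in the young adult libraries. Another region, inside Runx1 and at a RefSeq start (chr16:92697182-92697972), was open in all 9 libraries. It covered 421, 409 and 397 bp in young adults and 376, 409 and 402 bp in mature adults. The region beside it (chr16:92698310-92698940) covered 228, 458 and 447 bp in young adults and 0, 204 and 204 bp in mature adults. Hpgds, a prostaglandin D synthase of mast cells and other immune cells, had 404, 309 and 271 bp. These 3 windows had a CpG number of 2, 5 and 2 (Gm8369, Hpgds, Runx1).

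In CpG number and in G and C content, starts of the class fell between starts open in all 6 adult libraries and starts without an adult peak. The median window held 14 CpG (quartiles 7 and 28) and 58.7% G and C, against 22 CpG and 62.0% in windows open in all 6 adult libraries, 3 CpG and 48.7% in windows open in none, and 13 CpG and 56.3% in all windows. On either strand, the GC box GGGCGG stood in 57.4% of the 61 windows, against 69.9% of windows open in all 6 adult libraries, 19.1% of windows open in none and 46.2% of all windows. The ETS core CCGGAA stood in 14.8%, against 31.5%, 5.49% and 18.7%. The AP-1 motif TGANTCA stood in 0 of the 61, below each of the references (4.03%, 10.4% and 6.99%). Motifs may overlap each other, and a match or its lack is a property of the letters in this window only.

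Per library, the mature adult lists held fewer peaks than the young adult lists. Young adult libraries 1, 2 and 3 held 67850, 68366 and 67550 peaks (67922 ± 413, SD, n = 3) and mature adult libraries 1, 2 and 3 held 59793, 64208 and 63105 (62369 ± 2298, SD, n = 3). The ages did not overlap, with a two-sided exact permutation p of 0.1, the smallest that 3 libraries against 3 allow. Without young adult library 3 and mature adult library 1 the mature minus young adult difference was -4451.5 peaks, against -5553 with all 6. The covered length was 36.4, 37.0 and 32.9 Mb in the young adult and 29.6, 34.0 and 33.5 Mb in the mature adult libraries, which overlapped (exact permutation p = 0.3). The mean peak width, 522 ± 30.3 bp against 518 ± 20.2 bp (SD, n = 3 each), overlapped too (exact permutation p = 0.8).

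**Figure D3:**
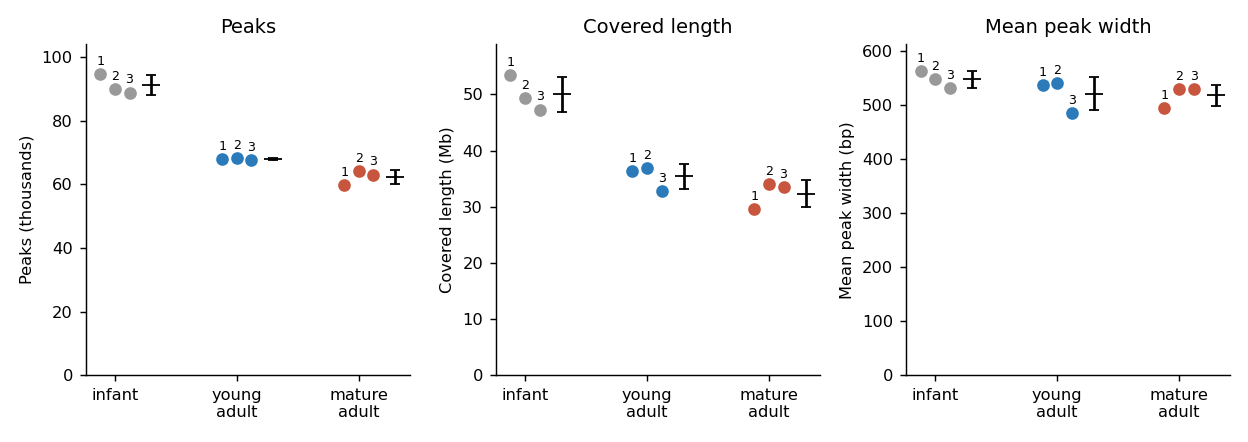
Peaks, covered length and mean peak width of each library by age, with the replicate number above each point and, beside the points, the mean with 1 SD (n = 3). All 3 mature adult libraries held fewer peaks than any young adult library, while covered length and width overlapped between the adult ages.

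Peaks lying at most 1 kb from a protein-coding gene's end made up 19.3%, 19.1% and 18.8% of the young adult and 20.3%, 19.4% and 19.6% of the mature adult peaks. The groups did not overlap (exact permutation p = 0.1), and the difference turned round, to -0.152 percentage points, when each library gave the same number of widest peaks. In number, such peaks were fewer in mature adults, 12343 ± 160 against 12969 ± 234 (SD, n = 3 each, exact permutation p = 0.1).

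Libraries of 1 age did not stand together in their covered bases. The Jaccard index (shared bases over all bases covered by either library) was 0.765 for young adult libraries 1 and 2 and 0.754 for mature adult libraries 2 and 3. Young adult library 3 shared 0.703 and 0.705 with mature adult libraries 2 and 3, more than the 0.685 and 0.681 it shared with young adult libraries 1 and 2. Mature adult library 1 shared 0.702 and 0.705 with its own age and between 0.654 and 0.676 with the young adult libraries.

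Peaks of all 9 libraries that overlapped were merged into 126907 regions, of which 91291 were open in at least 1 adult library and 43441 in all 6. A total of 1110 regions (1.22% of the 91291) were open in all 3 young adult and no mature adult library, and 256 (0.280%) in all 3 mature adult and no young adult library. Without young adult library 3 and mature adult library 1 the numbers were 3873 and 1548. With equal numbers of widest peaks they were 663 and 467, so that both numbers, and the ratio between the directions, changed with this choice. Among the adult libraries, 13091 regions were open in a single young adult library and 10348 in a single mature adult library.

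**Figure D4:**
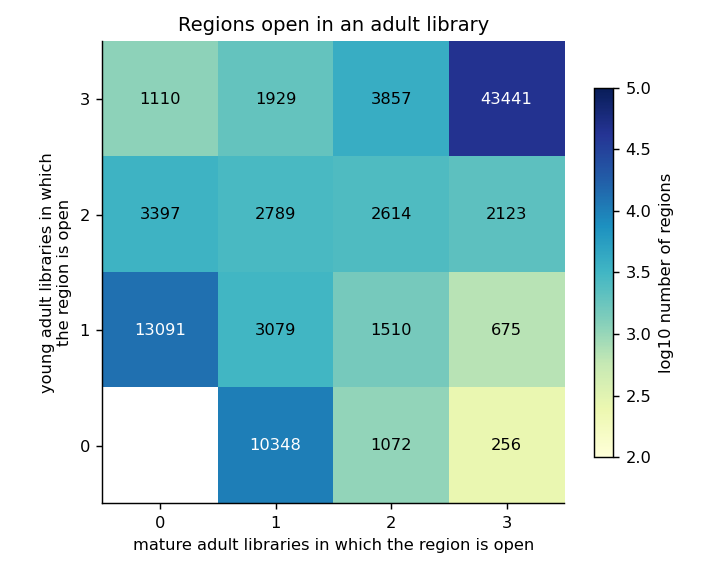
Number of regions by how many young adult (vertical) and mature adult (horizontal) libraries they were open in, with the colour on a log10 scale. The fullest cell was that of regions open in all 6 libraries (43441), and the corner of young adult only (1110) held more regions than the corner of mature adult only (256).

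The 2 classes differed in their infant state, which was not a criterion of either class. Infant peaks did take part in merging the regions, and so could join neighbouring adult peaks into a single region. Of the 1110 regions of young adults only, 764 (68.8%) were open in all 3 infant libraries and 156 (14.1%) in none. Of the 256 regions of mature adults only, 50 (19.5%) were open in all infants and 147 (57.4%) in none. As a reference, of the 5665 regions open in exactly 3 of the 6 adult libraries, 58.2% were open in all infants and 19.4% in none. Regions of young adults only thus lay somewhat to the infant side of that reference, and regions of mature adults only far to the other side of it. The infant lists were the longest, with between 88856 and 94646 peaks, and how far their length sets these shares was not tested.

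Both classes consisted of narrow peaks. The median width was 247 bp in regions of young adults only and 255.5 bp in regions of mature adults only, against 619 bp in regions open in all 6 adult libraries and 230 bp in regions open in exactly 3. Within 1 kb of a gene end lay 8.20% of the regions of young adults only and 2.34% of those of mature adults only, against 24.0% of regions open in all 6 and 7.08% of regions open in exactly 3. A protein-coding start with a RefSeq window lay in 52 regions (4.68%) of young adults only and in 0 of mature adults only. The starts of the long noncoding RNAs Gm830 and Gm32539 did overlap regions of mature adults only. Over the Gm830 start the mature adult peaks were 182, 150 and 269 bp wide. Over the Gm32539 start only mature adult library 3 had a peak, of 604 bp.

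Of the 6 widest regions of young adults only, 4 lay in or across the end of a gene. Their coordinates are those of the lists, with a possible error of 1 bp. The widest, inside Auts2, a gene of Polycomb complexes and neuronal development (chr5:131537087-131539062), covered 1374, 1684 and 1815 bp in the young adult libraries and between 1878 and 1899 bp in infants. A region across the lower-coordinate end of Bmp2 (chr2:133551908-133553519), a bone morphogenetic protein that acts on lung vessels, covered 1152, 1258 and 479 bp in the young adult and 1561, 1520 and 1377 bp in the infant libraries. A region inside Tenm2, a teneurin adhesion protein (chr11:37235809-37237076), covered 843, 1083 and 548 bp, and one inside Camk4, a calcium-dependent kinase, covered 1149, 985 and 438 bp. All of these were open in all 3 infants and had no peak in a mature adult library. The other 2 of the 6 widest, on chromosomes 11 and 5, lay over 100 kb from any protein-coding gene, and the start of 5730522E02Rik printed above lies in the one on chromosome 11.

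By number, Lhfpl2 and Plcb1 held 4 regions of young adults only each, and 80 genes held at least 2. Lhfpl2, a membrane protein of the tetraspan family, held 21, 20 and 14 peaks in young adults and 7, 9 and 11 in mature adults, with 33, 28 and 27 in infants. Plcb1, a phospholipase C downstream of G-protein-coupled receptors, held 48, 56 and 55 peaks in the young adult and 34, 42 and 48 in the mature adult libraries. The numbers at Lhfpl2 did not overlap between the adult ages, and at Plcb1 the highest mature adult number equalled the lowest young adult number.

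The widest region of mature adults only lay inside Trim30d (chr7:104501300-104502430), a member of the Trim30 family of several near-identical genes, where reads can be split between copies. It covered 822, 1113 and 921 bp in the mature adult and 428, 426 and 319 bp in the infant libraries, with no young adult peak. Regions inside Ppp1r10 (chr17:35929810-35931023; 868, 853 and 502 bp), Nln (chr13:104065732-104066250; 518, 467 and 506 bp), Pde4b (chr4:102222822-102223420; 456, 501 and 520 bp) and Rprd2 (chr3:95766279-95766845; 386, 548 and 566 bp) were open in no infant or young adult library. Ppp1r10 targets protein phosphatase 1 to the nucleus, and Pde4b breaks down cyclic AMP. Near Lama5, a laminin chain of basement membrane, a region at chr2:180238707-180239354 covered 323, 633 and 647 bp in mature adults and was also open in all infants. The class held at most 2 regions a gene, with 2 each at 14 genes, among them Calcrl, the receptor subunit for adrenomedullin and CGRP in endothelium, and Ampd3, an AMP deaminase.

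No region open at both ages passed the test of width. Of the 43441 regions open in all 6 adult libraries, limma called 0 wider and 0 narrower in mature adults at an adjusted p below 0.05, while 3237 (7.45%) had an unadjusted p below 0.05. With the infant libraries also in the fit, over the 41144 regions open in all 9, limma called 10 wider and 42 narrower. On simulated data for this comparison the fit recovered 70% of regions widened and 64% of regions narrowed by 0.5 on the log2 scale. The simulation gave every region the same spread, the median over regions of the SD among the young adult libraries, and no library stood apart in it. The recovery at the real spread is therefore not known, and 0 calls do not show that widths were unchanged.

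Gene by gene, the number of peaks assigned to each protein-coding gene was scaled to the library's total and tested as log2(number + 0.5) by limma over the 14451 genes whose mean reached 1 peak. In mature adults 101 genes (0.699%) had fewer peaks and 21 (0.145%) had more, together 0.844%, at a Benjamini-Hochberg adjusted p below 0.05. Without scaling, 119 (0.823%) were lower and 15 (0.104%) higher. Without young adult library 3 and mature adult library 1 they were 397 lower and 160 higher. Raw numbers did not overlap between the ages for 634 genes (4.39%) with fewer and 88 (0.609%) with more peaks in mature adults, of which 164 and 13 differed by at least 3 peaks. Over all genes the median change was 0.086 on the log2 scale after scaling and 0 without.

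Most called genes held few peaks, and many did not vary within an age. Of the 101 lower genes, 82 had a young adult mean of at most 3 peaks, 38 were at 0 in every mature adult library, and 45 differed by at most 1 peak. Of all 122 called genes, 64 had no variation in number among libraries of the same age, which leaves almost no spread, so that a small p can go with a difference of 1 peak. Of the 46 called genes named here, 30 lower and 16 higher, 16 and 9 also passed with the adult libraries alone, and 10 and 4 with equal numbers of widest peaks. Only 16 lower and 3 higher genes differed by at least 3 peaks between the group means. With a filter of a mean of at least 3 peaks, limma called 17 genes lower and 0 higher among 6419, of which 839 had an unadjusted p below 0.05 in either direction.

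**Figure D5:**
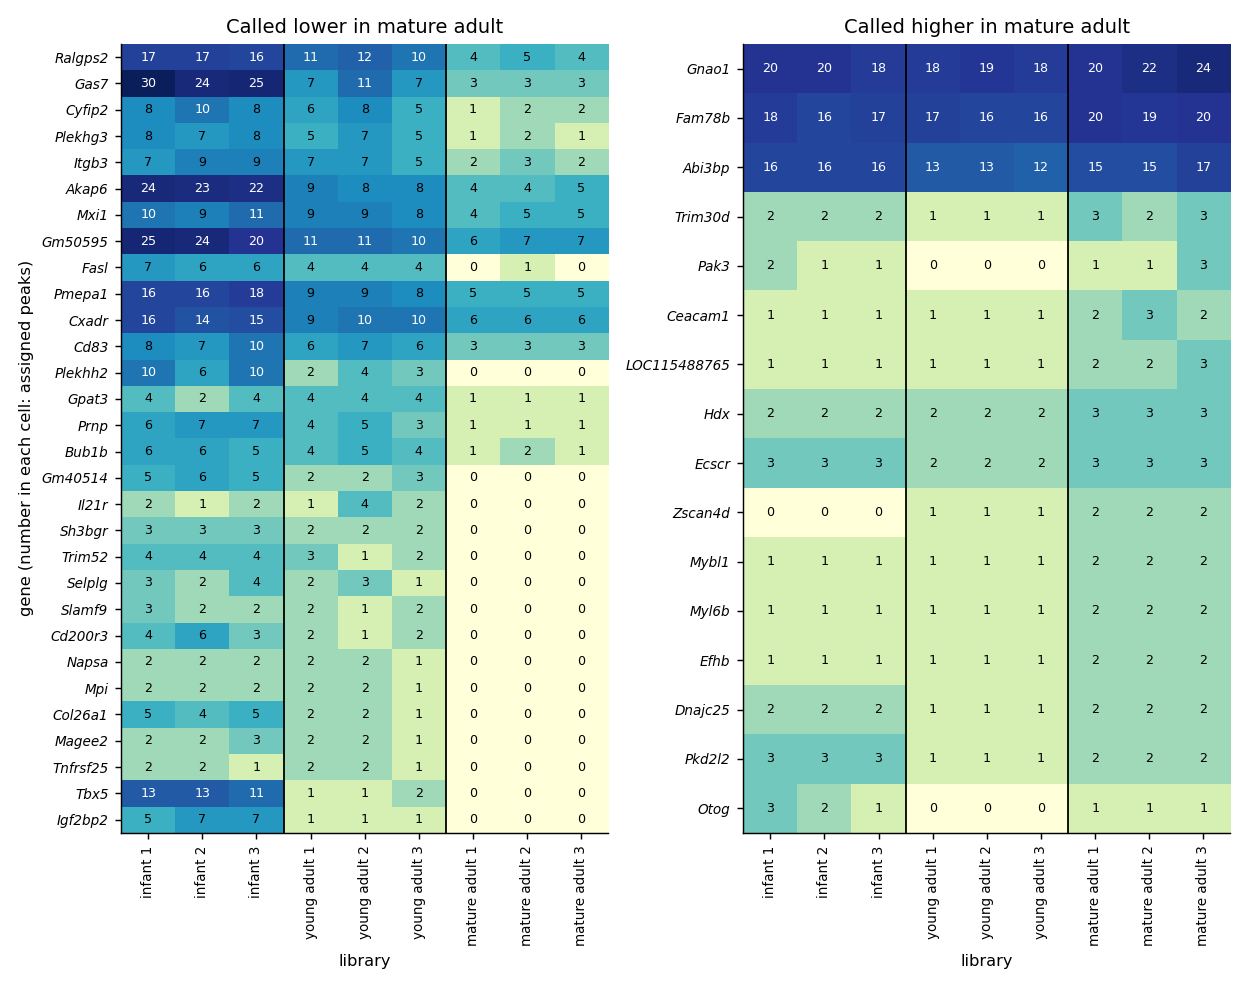
Number of peaks assigned to each named gene that passed the limma test (rows) in the 9 libraries (columns), on a log2 colour scale, genes with fewer peaks in mature adults at left and with more at right. Vertical lines separate the ages. Genes at left ran mostly from high in infants through young adults to low or 0 in mature adults.

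The lower genes with larger numbers are given first. Ralgps2, an exchange factor for the small GTPase Ral (chr1:156804166-156939850), held 11, 12 and 10 peaks in the young adult and 4, 5 and 4 in the mature adult libraries (17, 17 and 16 in infants), a change of -1.15 ± 0.09 (SE) on the log2 scale with a limma adjusted p of 0.000985. Gas7, an actin-binding protein (chr11:67453257-67688992), held 7, 11 and 7 against 3, 3 and 3 (30, 24 and 25 in infants; limma adjusted p = 0.0245). Cyfip2 (chr11:46193849-46312859) held 6, 8 and 5 against 1, 2 and 2 (limma adjusted p = 0.0351). In all 3 the adult ages did not overlap and infants held at least as many peaks as any young adult library. With equal numbers of widest peaks the limma adjusted p was 0.433 for Ralgps2, 0.0265 for Gas7 and 0.0690 for Cyfip2, and with the adult libraries alone 0.0184, 0.120 and 0.148. These and the other genes that differed by at least 3 peaks were named after their values were seen.

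Itgb3, the integrin beta chain of the vitronectin receptor and of the platelet fibrinogen receptor, held 7, 7 and 5 peaks against 2, 3 and 2 (limma adjusted p = 0.0483). Cxadr, a junction protein and adenovirus receptor, held 9, 10 and 10 against 6 in each mature adult library (limma adjusted p = 0.0129). Plekhg3 held 5, 7 and 5 against 1, 2 and 1 (limma adjusted p = 0.0166). At Plekhg3 a wide region across the gene's lower-coordinate end, 995, 1129 and 633 bp in young adults, had a mature adult peak only in library 3, of 397 bp. At Itgb3 a region inside the gene (chr11:104663281-104664793) covered 234, 366 and 160 bp in young adults, between 1065 and 1479 bp in infants, and had no mature adult peak. With equal numbers of widest peaks the limma adjusted p was 0.524 for Itgb3, 0.732 for Cxadr and 0.0546 for Plekhg3, and with the adult libraries alone 0.138, 0.0558 and 0.100.

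The next 3 genes had mature adult numbers of up to 5. Mxi1, a partner of Max that opposes Myc, held 9, 9 and 8 peaks against 4, 5 and 5 (limma adjusted p = 0.0266), and 1 of its starts (chr19:53310256-53310555) had peaks of 197, 235 and 162 bp in young adults and none in mature adults. Pmepa1, a target and inhibitor of TGF-beta signalling, held 9, 9 and 8 against 5 in each mature adult library (limma adjusted p = 0.0187). Bub1b, a kinase of the spindle checkpoint, held 4, 5 and 4 against 1, 2 and 1 (limma adjusted p = 0.0347, 0.0815 without young adult library 3 and mature adult library 1). Infant numbers of Mxi1 (10, 9 and 11), Pmepa1 (16, 16 and 18) and Bub1b (6, 6 and 5) were at least as high as the young adult ones. Mxi1 (0.346), Pmepa1 (0.268) and Bub1b (0.234) lost their limma call with equal numbers of widest peaks.

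Akap6, an anchor for protein kinase A, held 9, 8 and 8 peaks against 4, 4 and 5 (limma adjusted p = 0.0112). Prnp, the prion protein, held 4, 5 and 3 against 1 in each mature adult library (limma adjusted p = 0.00688). Gpat3, which starts triglyceride synthesis, held 4 in each young adult and 1 in each mature adult library (limma adjusted p = 0.0217, 0.0667 without young adult library 3 and mature adult library 1). The predicted gene Gm50595 held 11, 11 and 10 against 6, 7 and 7 (limma adjusted p = 0.0395, 0.0530 without young adult library 3 and mature adult library 1, and 0.0521 without scaling). With equal numbers of widest peaks Akap6 (0.367), Prnp (0.103) and Gm50595 (0.200) lost their call by limma.

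Genes with few peaks in young adults and none in mature adults made up most of the largest fitted falls. Plekhh2 (chr17:84511895-84622143) held 2, 4 and 3 peaks in young adults, 10, 6 and 10 in infants and 0 in each mature adult library (limma adjusted p = 0.00178). Sh3bgr, a small glutamate-rich protein, held 2 in each young adult library and 3 in each infant (limma adjusted p = 1.78e-07), and the smallness of that p goes with equal numbers within each age. Napsa, a protease that processes surfactant proteins in alveolar type 2 cells, and Mpi, which makes mannose-6-phosphate, each held 2, 2 and 1 (limma adjusted p = 0.00168 for both). The predicted gene Gm40514 (2, 2 and 3), the collagen Col26a1 (2, 2 and 1), Magee2 of the MAGE family (2, 2 and 1) and Trim52 of the TRIM family (3, 1 and 2) also had 0 in each mature adult library, with limma adjusted p between 0.000292 and 0.0106.

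The next genes encode immune receptors or their ligands. They were set together after their values were seen, without a list, a count over all genes or a test of the group. Fasl, the ligand of the death receptor Fas (chr1:161780691-161788495), held 4 peaks in each young adult library and 0, 1 and 0 in the mature adult libraries (7, 6 and 6 in infants; limma adjusted p = 0.0464). Il21r, the interleukin 21 receptor, held 1, 4 and 2 against 0 (limma adjusted p = 0.0433). Selplg, the P-selectin ligand of leukocytes, held 2, 3 and 1 against 0 (limma adjusted p = 0.0251). Young and mature adult numbers did not overlap in any of these 3, which was a condition of their being named.

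Slamf9 (2, 1 and 2 against 0), Cd200r3 (2, 1 and 2 against 0), which belongs to a family of similar receptors, and Tnfrsf25 (2, 2 and 1 against 0), a death receptor of T cells, also had 0 in each mature adult library, with limma adjusted p of 0.00398, 0.0138 and 0.00913. Cd83, a marker of mature dendritic and B cells, held 6, 7 and 6 peaks against 3 in each mature adult library (limma adjusted p = 0.0397). Without young adult library 3 and mature adult library 1, the adjusted p was 0.111 for Fasl, 0.106 for Il21r, 0.0512 for Cd200r3 and 0.0772 for Cd83. Without scaling it was 0.0551 for Fasl and 0.0773 for Il21r. With the adult libraries alone it was 0.198 for Fasl, 0.179 for Il21r and 0.0877 for Selplg.

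Immune markers as a list overlapped between the ages. The 19 members, 7 of them without an adult peak, summed to 32, 30 and 17 peaks in young adults, 16, 18 and 16 in mature adults and 27, 24 and 24 in infants. Young adult libraries 1 and 2 were high and young adult library 3 lay within the mature adult range. The leukocyte gene Laptm5 had 9, 8 and 4 peaks in young adults against 2, 5 and 5, and Ptprc, the pan-leukocyte CD45, had 7, 5 and 4 against 4 in each mature adult library. Of the 6 members with enough peaks for the test, limma called 0 (and 0 at an unadjusted p below 0.05), and their median change was -0.21 against 0.086 for all genes. Among all 14451 genes, 821 were lower and 566 higher at that unadjusted threshold. The part of immune cells in the falls above was not tested.

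Genes with more peaks in mature adults rose by small numbers. Gnao1, a G-protein alpha subunit, held 18, 19 and 18 peaks in the young adult and 20, 22 and 24 in the mature adult libraries (limma adjusted p = 0.0464, 0.327 without scaling). Fam78b (chr1:166999851-167091302) held 17, 16 and 16 against 20, 19 and 20 (limma adjusted p = 0.0396, 0.0991 without scaling), and 2 regions outside the gene, at chr1:166970691-166971298 and chr1:166996983-166997244, were open in all 3 mature adult and no other library. Abi3bp, an extracellular matrix protein, held 13, 13 and 12 against 15, 15 and 17 (limma adjusted p = 0.0388, 0.103 without scaling). These 3 were the only called rises of at least 3 peaks, and all lost their call without scaling.

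Ecscr, a sialomucin of endothelial cells that acts on migration and apoptosis, held 2 peaks in each young adult and 3 in each mature adult and infant library (limma adjusted p = 0.00313). Ceacam1, an adhesion receptor from a family with near copies, held 1 in each young adult and infant library and 2, 3 and 2 in the mature adult libraries (limma adjusted p = 0.00994). Mybl1, a MYB transcription factor, Myl6b, a myosin light chain, and Efhb held 1 in each young adult and infant and 2 in each mature adult library (limma adjusted p = 0.000168 for each). At Ecscr, Mybl1, Myl6b and Efhb the numbers were equal within each age, so that their p-values say little about spread. With equal numbers of widest peaks Ceacam1, Ecscr, Mybl1 and Efhb lost their call (limma adjusted p between 0.524 and 0.583), and Ceacam1 also lost it with the adult libraries alone (0.0713).

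Of the remaining named rises, Hdx (2 against 3 peaks in each library), Dnajc25 and Pkd2l2 (1 against 2) had limma adjusted p between 0.000335 and 0.00273. Pak3, a kinase downstream of Rac and Cdc42, held 0 in the young adult and 1, 1 and 3 in the mature adult libraries, and Otog, a glycoprotein of the inner ear, 0 against 1 in each. Both lost their call without scaling (limma adjusted p = 0.104 and 0.0838). Trim30d (1 against 3, 2 and 3), Zscan4d (1 against 2) and LOC115488765 (1 against 2, 2 and 3) are uncertain, since they belong to families of near-identical copies or are predicted genes, and the direction of Zscan4d turned by covered bases, to -0.0190.

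Genes that fell in mature adults mostly stood higher in infants. Of the 101 lower genes, 69 had an infant mean above the young adult mean, 20 an equal one and 12 a lower one. Of the 21 higher genes, 12 had an infant mean above the young adult mean, 8 an equal one and 1 a lower one. The infant libraries held more peaks in all, so the scale of these means is not the same, and they took part in the fit's estimate of spread. They also counted towards the required mean of 1 peak, so that genes low in adults, such as Tbx5, could enter through infant peaks. The same shares over all tested genes are not given here, so these numbers describe the called genes only.

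Lists of genes for pathways and cell types were then read against the whole. They hold 661 symbols in 36 lists, of which 657 were found and 605 tested. Of the 605, limma called 2 lower, Tbx5 and Igf2bp2, and 0 higher, against 0.699% and 0.145% of all genes. The raw numbers of 42 did not overlap and were lower, and of 3 were higher, against 4.39% and 0.609% of all genes. At an unadjusted p below 0.05, 39 of the 605 were lower and 41 higher, against 821 and 566 of all 14451 genes.

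Tbx5, a T-box factor of lung mesenchyme and heart, held 1, 1 and 2 peaks in the young adult libraries, 0 in each mature adult library and 13, 13 and 11 in infants (limma adjusted p = 0.00522). Its region in all 3 young adults (chr5:119740980-119741445), outside the gene, covered 392, 283 and 152 bp. The fibroblast and mural markers, among which it stands, summed to 53, 57 and 54 peaks in the young adult and 50, 50 and 48 in the mature adult libraries, and of the 15 tested limma called Tbx5 alone. Igf2bp2, an RNA-binding protein named for its binding to Igf2 mRNA, held 1 in each young adult and 0 in each mature adult library, with 5, 7 and 7 in infants (limma adjusted p = 0.000985). Both lost their call with equal numbers of widest peaks (limma adjusted p = 0.578 for Tbx5 and 0.594 for Igf2bp2).

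The fetal growth list had the lowest median change of the pathway lists, -0.48 over 17 tested genes, against 0.086 for all genes. Limma called 1 of the 17 lower, against 0.699% of all genes. At an unadjusted p below 0.05, 6 were lower and 0 higher, against 821 and 566 of all 14451 genes. Raw numbers of 3 were lower without overlap, as were those of 4.39% of all genes. Some members reached the required mean only through infant peaks. Igf2bp1 (1, 2 and 0 in young adults), Igf2bp2 (1, 1 and 1) and Lin28b (1, 1 and 0) held 0 in each mature adult library. Their fitted falls lie near the lowest possible numbers and enter the median. Igf1, the insulin-like growth factor 1, held 4, 3 and 8 peaks against 2 in each mature adult library (limma adjusted p = 0.234). Igf2bp3 held 10, 11 and 9 against 5, 8 and 5 (limma adjusted p = 0.234). Hmga2, a chromatin protein of growing tissue, held 3, 5 and 3 against 1, 3 and 1 (limma adjusted p = 0.234), with 14, 13 and 16 in infants. Adult groups did not overlap at Igf1 and Igf2bp3, which was a condition of their being named, and overlapped at Hmga2.

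In the list of extracellular matrix genes, 7 of 31 tested had fewer peaks in each mature adult than in each young adult library, none had more (4.39% and 0.609% of all genes), and limma called 0, with 8 lower at an unadjusted p below 0.05 (821 of all 14451 genes). Col4a3, the partner of Col4a4 in basement membrane, held 3, 3 and 4 peaks against 0, 1 and 1 (limma adjusted p = 0.229). Col4a4 itself held 2, 2 and 1 against 1, 2 and 1, which overlapped (limma adjusted p = 0.804). The peak over the Col4a4 start is not in these Col4a4 numbers, and whether it counts among those of Col4a3 was not tested. The Col4a4 start and the Col4a3 number are thus not shown to be separate losses. Sparc, a collagen-binding matrix protein, held 9, 11 and 11 against 8 in each mature adult library (limma adjusted p = 0.287), and Col18a1, the source of endostatin, 13, 11 and 11 against 8, 10 and 9 (limma adjusted p = 0.234). The median change of the list was -0.05.

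Of endothelial transcription factors, 29 were tested and limma called 0, with 2 lower and 1 higher at an unadjusted p below 0.05, against 821 and 566 of all 14451 genes. Mecom, a zinc-finger factor of arterial endothelium and blood stem cells, held 27, 28 and 27 peaks against 21, 18 and 19 (limma adjusted p = 0.164, and 0.0352 without young adult library 3 and mature adult library 1). Mef2c held 27, 30 and 27 against 18, 20 and 23 (limma adjusted p = 0.234). Lmo2, a bridging factor of GATA and TAL complexes, held 12, 11 and 13 against 6, 10 and 10 (limma adjusted p = 0.289). Ets1 held 41, 42 and 39 against 35, 36 and 37 (limma adjusted p = 0.490). In these 4 every mature adult library was below every young adult one, which was a condition of their being named. The same was so for 4.39% of all genes, while the ages overlapped at Erg (29, 27 and 30 against 22, 28 and 25) and Fli1 (18, 22 and 20 against 17, 18 and 18).

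Signals and receptors of vessel growth gave 0 calls by limma in the lists of VEGF and tip cell genes (18 tested), Notch (16), angiopoietin and Tie (8), TGF-beta and BMP (24) and Wnt (22). At an unadjusted p below 0.05 these lists held, in the same order, 1, 0, 0, 1 and 1 lower and 2, 0, 1, 2 and 0 higher genes. The numbers over all 14451 genes were 821 lower and 566 higher at that threshold, and limma called 0.699% lower and 0.145% higher. Cxcr4, the chemokine receptor of tip cells, held 13, 10 and 10 peaks against 7 in each mature adult library (limma adjusted p = 0.126), with 16, 16 and 15 in infants. Bmp2 held 7, 5 and 5 against 4, 2 and 1 (limma adjusted p = 0.234, and 0.0476 without young adult library 3 and mature adult library 1). Kdr held 30, 31 and 27 against 27, 31 and 30, which overlapped. Unc5b, a netrin receptor, went the other way, with 16, 17 and 16 against 18 in each mature adult library (limma adjusted p = 0.143).

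In guidance genes and adhesion, Slit2 held 6, 8 and 11 peaks against 5, 3 and 4 (limma adjusted p = 0.234) and Slit3 24, 24 and 25 against 22, 21 and 20 (limma adjusted p = 0.484). Robo4, the endothelial Robo receptor, held 3 in each young adult and 4, 5 and 4 in the mature adult libraries (limma adjusted p = 0.0503). Itga9, an integrin of lymphatic valves, held 20, 16 and 15 against 13, 14 and 12 (limma adjusted p = 0.283), and Nfkb1, the p105 and p50 subunit of NF-kappaB, 19, 21 and 20 against 16, 18 and 17 (limma adjusted p = 0.310). None of these passed the test, and none overlapped between the ages. For Slit2, Slit3, Itga9 and Nfkb1 the lack of overlap was a condition of being named. Of the 29 guidance genes tested, 2 were lower and 2 higher without overlap, against 4.39% and 0.609% of all genes.

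A list of long genes of neuronal adhesion differed more between libraries of the same age than between the ages. Its 25 members summed to 102, 91 and 292 peaks in the young adult and 308, 143 and 130 in the mature adult libraries, with between 183 and 197 in infants. Young adult library 3 and mature adult library 1 were the high ones, the ages overlapped, and limma called 0 of 23 tested, with 3 higher and 0 lower at an unadjusted p below 0.05. Among all 14451 genes, 566 were higher and 821 lower at that threshold.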

How the data were processed

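The 9 peak lists, 1 per library, give the chromosome, start and end of each peak and no height or score, per the file headers. Cutadapt, Bowtie2 and Picard (no versions listed) and the build mm10 are named, per the submitters' processing notes. How peaks were called, and whether reads were shifted for the Tn5 offset, is not given in the sources used here. Each distinct interval was counted once, since the deposited lists repeat rows.

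A peak was assigned to the protein-coding RefSeq gene (21887 genes, GRCm38.p6) whose body held its centre, with several to the one whose end was nearest, or else to the nearest gene end within 100 kb. Regions are the unions of peaks from all 9 libraries that share 1 bp or more. Gene starts were RefSeq windows of 300 bases, given for 17492 of the 21887 genes. The number of peaks a gene held, scaled to its library's peak total with 0.5 added, and the log2 covered bases of shared regions, centred on the library median, were tested with limma 3.58.1 in R 4.3.3 (mean-variance trend). Genes needed a mean of at least 1 peak over all 9 libraries, and the gene fit held all 9 libraries. P-values were Benjamini-Hochberg adjusted over all genes or regions, with a threshold of 0.05. Library values were compared by a two-sided exact permutation test over 20 splits. The other steps ran in Python 3.11.15 (pandas 2.3.3, numpy 2.4.6, scipy 1.17.1), with figures in matplotlib 3.10.9.

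On simulated data for mature against young adult (13817 genes), the gene fit recovered 4% of genes raised 2-fold, 40% raised 4-fold, 6% lowered 2-fold and 10% lowered 4-fold, and called 0.0147% of unchanged genes. The simulated numbers were Poisson draws around each gene's adult mean, a spread that the real numbers need not have.

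Up to 14 called genes in each direction with the largest fitted change and no overlap of raw numbers were named, with list members that were called or differed by at least 3 peaks without overlap, up to 6 regions a class by the percentile of their width, and the 6 genes with most regions. The comparison, the lists and the rules were chosen with earlier results of these data known. Alternatives were other scalings, filters, assignments and fits, each library left out in turn, and young adult 3 and mature adult 1 left out together. A gene that met the rule is not reported here.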

Additional observations from a re-analysis of the deposited data

How the results depend on the processing

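Depth is unknown, and list length limits what a missing peak can show. Counts of genes higher and lower in mature adults were 21 and 101 in the gene fit. They were 39 higher with no filter, 0 and 17 with a mean of at least 3 peaks, 12 higher with rows as deposited, and 37 and 66 with equal numbers of widest peaks. They were 160 and 397 without young adult 3 and mature adult 1, and 127 and 368 without both and unscaled, an alternative chosen after seeing the data. Leaving out single libraries gave between 23 and 104 higher and between 85 and 309 lower. Leaving out young adult 3 gave 104 and 309, mature adult 2 gave 48 and 163, mature adult 1 gave 45 higher and mature adult 3 gave 38 higher. No scaling, the pseudocount of 1, peaks within 10 kb, covered bases and the fit of adult libraries alone stayed within 1.5 times of both counts, but not with the same genes: covered bases shared 2 of the 21 and 43 of the 101, and the adult libraries alone 11 and 73. Equal numbers of widest peaks shared 5 and 25. Regions of young adults only, 1110, were 663 with equal numbers of widest peaks, 3873 without both libraries, and between 1445 and 3282 without single libraries (3282 without young adult 3, 2073 without mature adult 2, 1784 without young adult 1, 1741 without mature adult 3). Regions of mature adults only, 256, were 467, 1548 and between 430 and 891 (891 without mature adult 1). Genes with such a start, 60 and 2, were 272 and 13 without both libraries, between 68 and 225 and between 4 and 10 without single libraries (225 without young adult 3, 101 without mature adult 2), and 7 of the second kind with equal numbers of widest peaks; these start alternatives were also chosen after seeing the data. Fewer required libraries by construction let more regions enter a class. The width fit over all 9 libraries called 10 wider and 42 narrower regions. The mean width difference of -3.11 bp turned to 0.333 with medians and ran from -20.6 to 8.57 without single libraries, turning without young adult 1 (4.63), young adult 2 (6.62) or mature adult 1 (8.57). The share near gene ends turned to -0.152 with equal numbers of widest peaks, and by covered bases Zscan4d turned to -0.0190. Unless construction shows it, the cause was not tested. Of 788 alternative values for 46 named called genes, 533 kept direction and side of the threshold, 254 lost the call and 1 turned.

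Libraries of the 2 ages share replicate numbers without a stated pairing. The deviations of same-numbered libraries correlated by -0.167, 0.167 and -0.111 over genes, so they were not treated as paired. With the replicate block the counts were 7 higher and 59 lower, and 0 and 0 for widths.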

Other observations

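The Y-linked genes Kdm5d, Eif2s3y, Uty and Ddx3y held 2, 1, 2 and 1 peaks in each of infant libraries 1 and 2 and none in infant library 3 or any adult library. Young adult library 3 held 1 peak on chromosome Y, outside these genes, and no other adult library held any. The share of peaks on chromosome X was 2.32%, 2.26% and 2.82% in the young adult and 2.87%, 2.48% and 2.54% in the mature adult libraries.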
